A study of Homo sapiens with 3 samples.

Results

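The RAS-ERK and PI3K-AKT cascade genes are a set of 41 genes chosen by name for their place downstream of the epidermal growth factor receptor EGFR, by a rule that uses no measured value. They run from adaptors and RAS regulators through RAF, MEK and ERK kinases on one arm and PI3K, AKT and mTOR genes on the other, with 2 SRC family kinases. All 41 had a row in the count file, which holds 60880 gene rows in all. The study set an anlotinib-resistant derivative of NCI-H1975 against wild-type cells by RNA-seq and ATAC-seq, with TFAP2A knockdown in the resistant cells. NCI-H1975, an established line of human lung adenocarcinoma cells, carries mutant EGFR, and anlotinib is an inhibitor of several receptor tyrosine kinases. Values come from 1 library, wild-type RNA-seq replicate 2, made from cells grown in serum-containing medium with no drug treatment named in the labels. The 2 wild-type ATAC-seq samples are known by label only, and neither resistant nor knockdown cells were analysed here. The values therefore describe parental cells alone, with no contrast, no replicate check and no p-value.

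An active EGFR recruits the adaptors SHC1 and GRB2, which bring the exchange factors SOS1 and SOS2 to RAS at the membrane. RAS bound to GTP engages RAF kinases, which phosphorylate MEK kinases, which in turn phosphorylate ERK kinases. PI3K, a dimer of a catalytic and a regulatory subunit, makes a phosphoinositide lipid that brings PDPK1 and AKT to the membrane, and AKT relieves the TSC complex's restraint on RHEB and mTOR. In EGFR-mutant lung cancer both arms carry the growth signal of the receptor.

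The library held 25012733 counts. A level is given as the read count and as CPM, counts per 1000000 counts of the library, and 1 count equalled 0.0400 CPM. No value is divided by gene length, so a difference between 2 genes is a difference in read numbers and not in molecules. Intervals are exact 95% intervals that cover counting error only, because 1 library gives no spread between libraries. PCR copies of 1 molecule could not be told from separate molecules, so the counting error itself may be larger than the intervals show. All 7 epithelial markers were detected, that is, had at least 10 counts, with EPCAM lowest at 4961 counts and KRT7 highest at 132533 counts. EGFR itself had 8328 counts, or 333 CPM.

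The PI3K subunit genes held the only 2 members under the detection minimum, PIK3CG and PIK3R2, and the promoter stretches of the 2 differed in CpG number. Each stretch holds the 250 bases before an annotated transcription start, from RefSeq on build GRCh38.p14, with every CpG dinucleotide in capitals. For a gene with several annotated starts the window with the most CpG was taken. PIK3CB and PIK3R3 are shown as the family members with the most reads, and PIK3CG and PIK3R2 as the ones with the fewest. The stretches lie at chr3:138834929-138835178 on the minus strand for PIK3CB, chr7:106865229-106865478 on the plus strand for PIK3CG, chr1:46133037-46133286 on the minus strand for PIK3R3 and chr19:18152913-18153162 on the plus strand for PIK3R2.
PIK3CB: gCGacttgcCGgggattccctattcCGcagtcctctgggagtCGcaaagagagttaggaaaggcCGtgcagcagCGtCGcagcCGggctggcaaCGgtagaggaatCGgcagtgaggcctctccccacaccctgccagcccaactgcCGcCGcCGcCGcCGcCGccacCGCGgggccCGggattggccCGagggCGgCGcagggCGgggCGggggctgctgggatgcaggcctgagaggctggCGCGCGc
PIK3CG: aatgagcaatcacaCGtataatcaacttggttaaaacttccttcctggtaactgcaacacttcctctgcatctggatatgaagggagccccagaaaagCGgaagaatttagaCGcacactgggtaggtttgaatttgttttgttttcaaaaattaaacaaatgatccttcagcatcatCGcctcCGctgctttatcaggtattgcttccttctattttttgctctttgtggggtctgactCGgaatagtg
PIK3R3: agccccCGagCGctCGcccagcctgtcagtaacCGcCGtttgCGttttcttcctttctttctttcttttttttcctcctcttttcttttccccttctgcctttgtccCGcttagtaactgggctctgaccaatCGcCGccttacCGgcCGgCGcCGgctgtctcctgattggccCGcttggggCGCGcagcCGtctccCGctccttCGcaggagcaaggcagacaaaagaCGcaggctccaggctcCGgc
PIK3R2: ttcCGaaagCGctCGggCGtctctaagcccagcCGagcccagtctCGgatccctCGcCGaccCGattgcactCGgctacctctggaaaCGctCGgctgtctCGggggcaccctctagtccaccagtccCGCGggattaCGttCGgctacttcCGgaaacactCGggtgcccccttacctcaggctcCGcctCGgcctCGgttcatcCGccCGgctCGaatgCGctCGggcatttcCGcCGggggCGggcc

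The PIK3CB stretch held 27 CpG and the PIK3CG stretch 6, while PIK3R3 held 21 and PIK3R2 held 30. The stretch of PIK3CG, with 1 count, thus had the fewest CpG of the 4, and that of PIK3R2, with 3 counts, had the most. This order depends on the window taken. PIK3CG and PIK3R2 each had 1 annotated window, while PIK3CB had 2 and PIK3R3 had 6. Over 300 bases, the poorest windows of PIK3CB and PIK3R3 held 2 and 4 CpG, below the 8 of PIK3CG. Which start the cells used was not tested. The 3 counts are the value of the PIK3R2 row and not a measure of its transcript, as set out below.

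Of the 41 genes 39 were detected, against a background of 69.7% of the 19052 protein-coding genes with a row. The members had a median of 52.8 CPM with undetected ones included, beside 9.83 CPM over all protein-coding genes. The 39 detected members had a median of 53.8 CPM, beside 26.4 CPM over the 13276 detected protein-coding genes. Half-intervals ran from 1.98% of the value for the highest member to 15.6% for the lowest detected one. Of the 41 genes, 11 were above 100 CPM, 25 between 10 and 100 CPM and 5 below 10 CPM. The 5 highest, MAP2K2, AKT1, SHC1, TSC2 and RPS6KB2, held 42.6% of the set's 81678 counts. Those 5 were also the members above at least 90% of detected protein-coding genes.

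**Figure D1:**
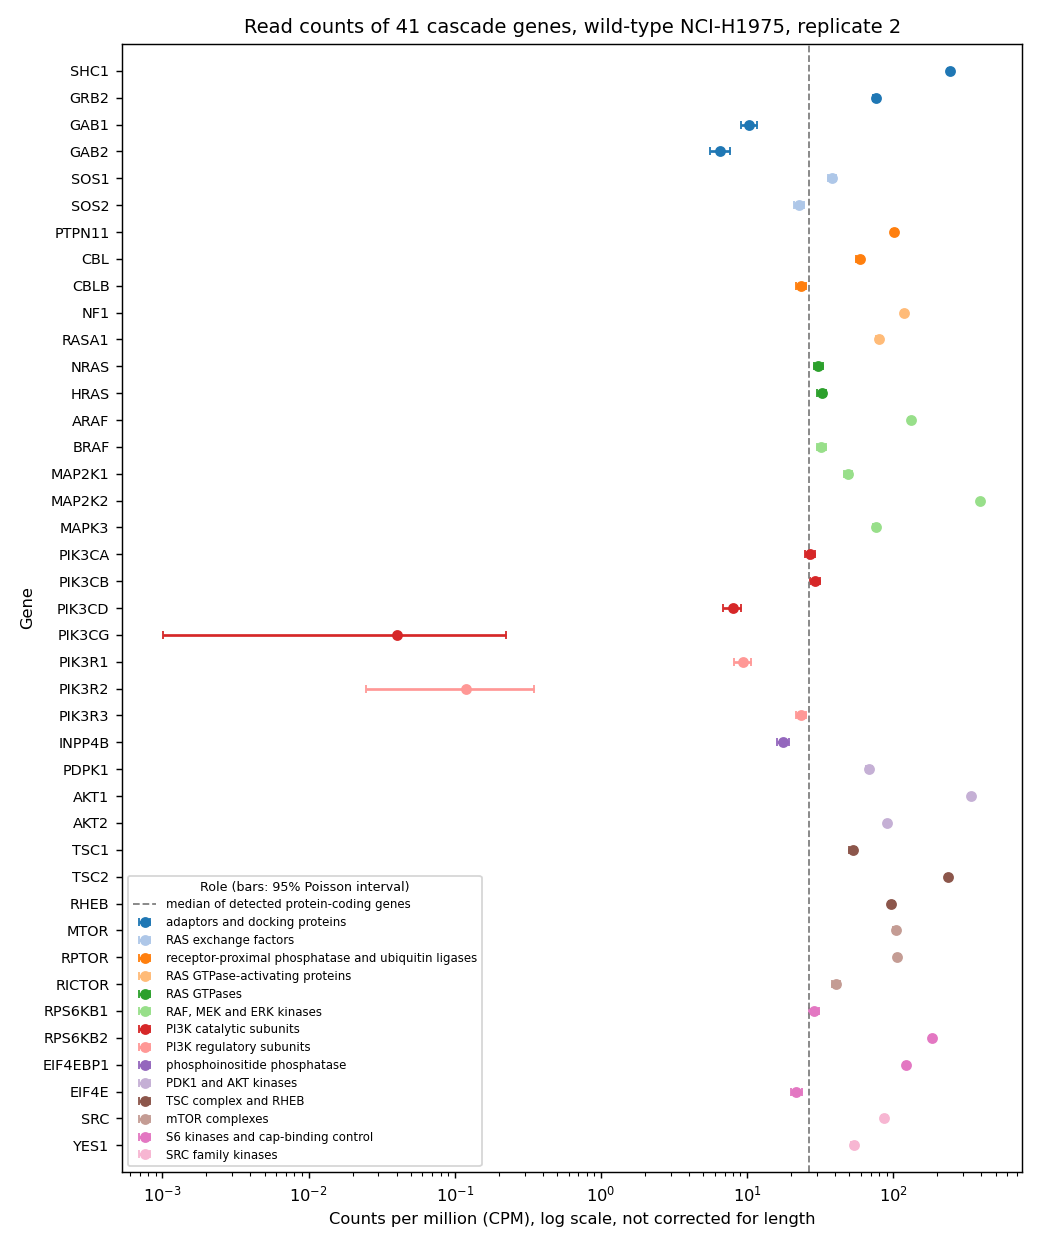
Read level of the 41 cascade genes in the wild-type library (x axis, CPM on a log scale), one row per gene in order of role (y axis, coloured by role), with points for values and bars for 95% Poisson intervals. Most genes lie to the right of the dashed median of detected protein-coding genes (26.4 CPM), and PIK3CG and PIK3R2 lie far to the left at 0.0400 and 0.120 CPM.

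**Figure D2:**
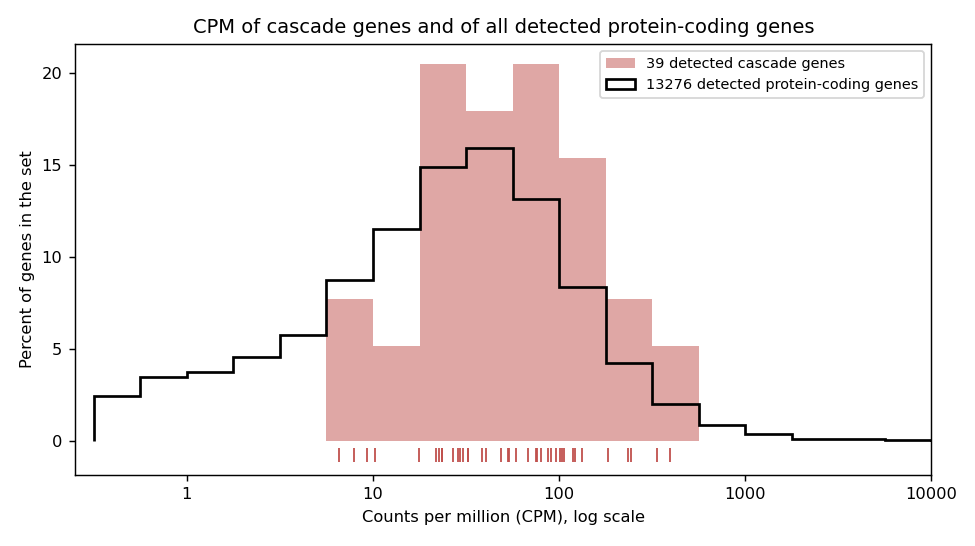
Percent of genes (y axis) by CPM on a log scale (x axis) for the 39 detected cascade genes (filled, with ticks for single genes) and all 13276 detected protein-coding genes (line). The cascade genes are centred at 53.8 CPM against 26.4 CPM for the larger set, and no detected member lies below the 6.56 CPM of GAB2.

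Among the adaptors, SHC1 drew most of the reads and the GAB docking proteins few. SHC1, which binds phosphorylated receptors and passes the signal to GRB2, had 6074 counts (243 CPM, 237 to 249). GRB2, which couples receptors to SOS, had 1889 counts (75.5 CPM, 72.2 to 79.0), and the ratio of SHC1 to GRB2 counts was 3.22 (3.05 to 3.39). GAB2 and GAB1 are scaffolds that recruit PI3K and the phosphatase PTPN11. GAB2 had 164 counts, or 6.56 CPM (5.59 to 7.64), and GAB1 had 258 counts, or 10.3 CPM (9.09 to 11.7). GAB2, the lowest detected member, stood above 21.7% of detected protein-coding genes. USP35 overlaps GAB2 in the RefSeq annotation and had 412 counts, so the GAB2 value and the ratio of 0.636 (0.519 to 0.776) to GAB1 are uncertain. Overlaps here and below are of whole gene spans, and whether exons overlap was not tested.

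The exchange factors SOS1 and SOS2, which load RAS with GTP, drew fewer reads than the GTPase-activating proteins NF1 and RASA1. The latter switch RAS off. This compares single members and not the classes. SOS1 had 958 counts, or 38.3 CPM, and SOS2 had 567 counts, or 22.7 CPM, at a ratio of 1.69 (1.52 to 1.88). NF1, the neurofibromin gene, had 2963 counts, or 118 CPM (114 to 123), and RASA1 had 2003 counts, or 80.1 CPM (76.6 to 83.7), at a ratio of 1.48 (1.40 to 1.57). NF1 is the gene with the most pseudogene rows, 12, and all of those were at 0, which cannot show whether NF1 lost reads shared with them. The CCNH gene overlaps RASA1 in the RefSeq annotation and had 746 counts, so the RASA1 value is uncertain without strand.

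PTPN11 and the CBL ligases act close to the receptor or beside it. PTPN11, the phosphatase SHP2 that promotes RAS activation, had 2529 counts, or 101 CPM (97.2 to 105). The ubiquitin ligases CBL and CBLB, which mark active receptors for degradation, had 1473 and 584 counts, or 58.9 and 23.3 CPM. The ratio of CBL to CBLB counts was 2.52 (2.29 to 2.78).

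NRAS and HRAS, the RAS genes reported here, drew nearly equal reads. NRAS had 766 counts, or 30.6 CPM (28.5 to 32.9), and HRAS had 809 counts, or 32.3 CPM (30.2 to 34.7). Their ratio of 0.947 had an interval of 0.857 to 1.05, so the 2 could not be ordered at this depth. HRAS overlaps LRRC56 in the RefSeq annotation, which had 725 counts, so the HRAS value is uncertain where the counting did not use strand.

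Among the RAF and MEK kinases reported here, the reads leaned to ARAF and MAP2K2. ARAF had 3310 counts, or 132 CPM (128 to 137), and BRAF had 806 counts, or 32.2 CPM (30.0 to 34.5), at a ratio of 4.11 (3.801 to 4.441). MAP2K2 (identifier ENSG00000126934.13_2), which encodes the kinase MEK2, had the most reads of all members, with 9837 counts, or 393 CPM (386 to 401). MAP2K1, which encodes its close relative MEK1, had 1226 counts (49.0 CPM, 46.3 to 51.8), and the ratio of MAP2K2 to MAP2K1 counts was 8.02 (7.56 to 8.52). MAPK3, which encodes the ERK1 kinase, had 1913 counts, or 76.5 CPM (73.09 to 79.99). MAP2K2 stood above 97.6% of detected protein-coding genes, MAP2K1 above 67.2% and BRAF above 55.6%.

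The PI3K catalytic genes were carried by the PIK3CB and PIK3CA isoforms, which most tissues use, in almost equal parts. PIK3CB had 730 counts, or 29.2 CPM (27.1 to 31.4), and PIK3CA had 671 counts, or 26.8 CPM (24.8 to 28.9). Their ratio was 1.09 (0.978 to 1.21), an interval that holds equality. PIK3CD and PIK3CG encode isoforms best known from leukocytes. PIK3CD had 199 counts, or 7.96 CPM (6.89 to 9.14), which was 12.4% (10.9 to 14.1) of the catalytic reads, and PIK3CG (ENSG00000105851.10_3) had 1 count. PIK3CG's share was 0.0625% (0.00158 to 0.348), and the ratio of PIK3CD to PIK3CG counts was 199 with an interval of 35.3 to 7899.

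Leukocyte markers were read beside these isoforms, and 4 of 12 were detected, with 2395 counts over the list. Those were VAV1 with 842 counts, CSF1R with 731, CD14 with 600 and CD79A with 217. PTPRC, which nearly all leukocytes express, had 2 counts, CD3E, LYZ and TYROBP had 1 each, and AIF1, CD3D, CYBB and LCP2 were at 0. The 4 detected markers each had more reads than PIK3CD, and their part in the PIK3CD count was not tested. PIK3CD is overlapped in RefSeq by CLSTN1 with 6205 counts and by PIK3CD-AS2 with 36 counts, so its value is uncertain without strand.

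Among the regulatory subunits, PIK3R3 took most of the reads. PIK3R3, which encodes the short p55-gamma subunit, had 586 counts, or 23.4 CPM (21.6 to 25.4), and 71.3% (68.1 to 74.4) of the family's 822 counts. PIK3R1, the p85-alpha gene, had 233 counts, or 9.32 CPM (8.16 to 10.6), and 28.3% (25.3 to 31.6). PIK3R2, the p85-beta gene (ENSG00000105647.16_3), had 3 counts, or 0.120 CPM (0.0247 to 0.351), and 0.365% (0.0753 to 1.06). The ratio of PIK3R3 to PIK3R1 counts was 2.52 (2.16 to 2.94) and that of PIK3R2 to PIK3R1 was 0.0129 (0.00264 to 0.0381).

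The near-empty PIK3R2 row stood between neighbours of very different counts. MAST3 on one side had 761 counts and IFI30 on the other had 6. The file lists 1 row between those of PIK3R2 and IFI30, ENSG00000268173.3_6, which has no gene name in the tables used and was at 0. The labels do not say how the authors' counting treated reads that fall in more than 1 annotated gene, and its part in the PIK3R2 count was not tested. For that reason 3 counts are the value of this row and not a measure of how much PIK3R2 transcript the cells held. The regulatory shares and the ratio of PIK3R2 to PIK3R1 rest on that row in the same way. The 4 catalytic genes together had 1601 counts, 1.95 times (1.79 to 2.12) the 822 counts of the 3 regulatory genes, and this ratio takes the PIK3R2 row as it stands.

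**Figure D3:**
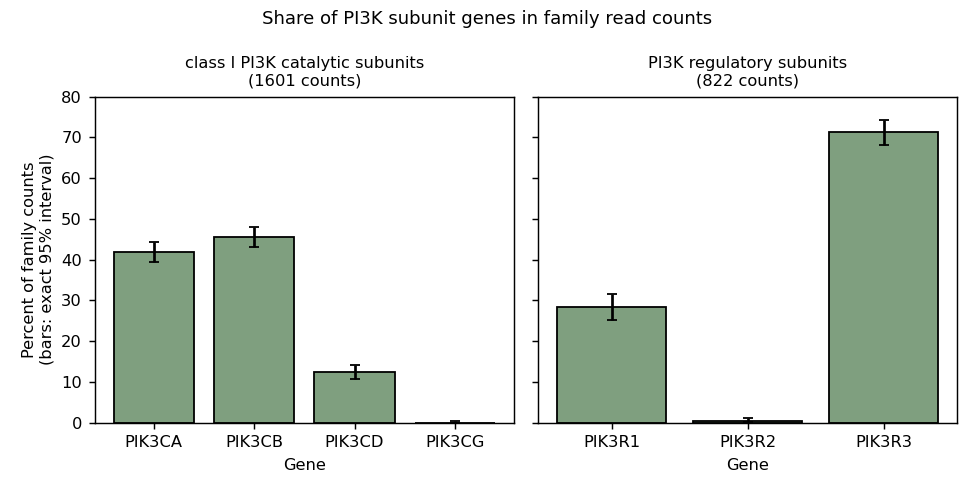
Percent of family read counts (y axis) for each PI3K catalytic gene (left, 1601 counts) and regulatory gene (right, 822 counts), with exact 95% intervals. PIK3CB and PIK3CA stand at 45.6% and 41.9% with overlapping intervals, PIK3R3 holds 71.3% of regulatory reads, and PIK3CG and PIK3R2 are near 0.

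Taken at the window with the most CpG, the promoters of the other members were mostly CpG-rich, as were those of most detected protein-coding genes. RefSeq windows, 250 bases before to 50 after a start, were matched for 36 members, and GAB1, PTPN11, CBL, EIF4EBP1 and SRC had no entry. Again the window with the most CpG was taken for each gene. Members had a median of 31 CpG per 300-base window. The median was 28 for 10835 detected protein-coding genes and 7 for 4402 that were not detected. A gene with more windows had more chances of a CpG-rich one, which bears on all these medians. Of the 36, 34 had 15 or more CpG in that window, and the other 2 were RASA1 with 13 and PIK3CG with 8. Some of the 34 also had a window under 15 CpG, down to 0 for INPP4B. Others, such as TSC2 with 36 in its poorest window, did not. The lower quartile of detected protein-coding genes was 20 CpG, so most of those also had 15 or more. Of all protein-coding genes with 8 or fewer CpG 26.6% were detected, and of those with 40 or more, where PIK3R2 falls with 40, 88.8% were detected. The PIK3R2 row is not a measure of its transcript, as stated above.

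Short motifs were searched on both strands in every annotated window of a gene, not only in the one with the most CpG. A gene with more windows thus had more chances of a match. PIK3R3 and INPP4B had 6 windows each and RPTOR had 1. The GC box GGGCGG was found for 27 of the 36 members (75%), against 65.2% of 15237 protein-coding genes. The ETS core CCGGAAG was found for 9 members (25%), against 16.7%, and the TATA box TATAAA for 3 (8.33%), against 12.4%. The members with the ETS core were SHC1, NF1, NRAS, HRAS, PIK3CA, PIK3R2, TSC1, TSC2 and YES1, and those with the TATA box were PIK3R3, INPP4B and RPTOR. These are letter matches in a window and not binding sites.

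**Figure D4:**
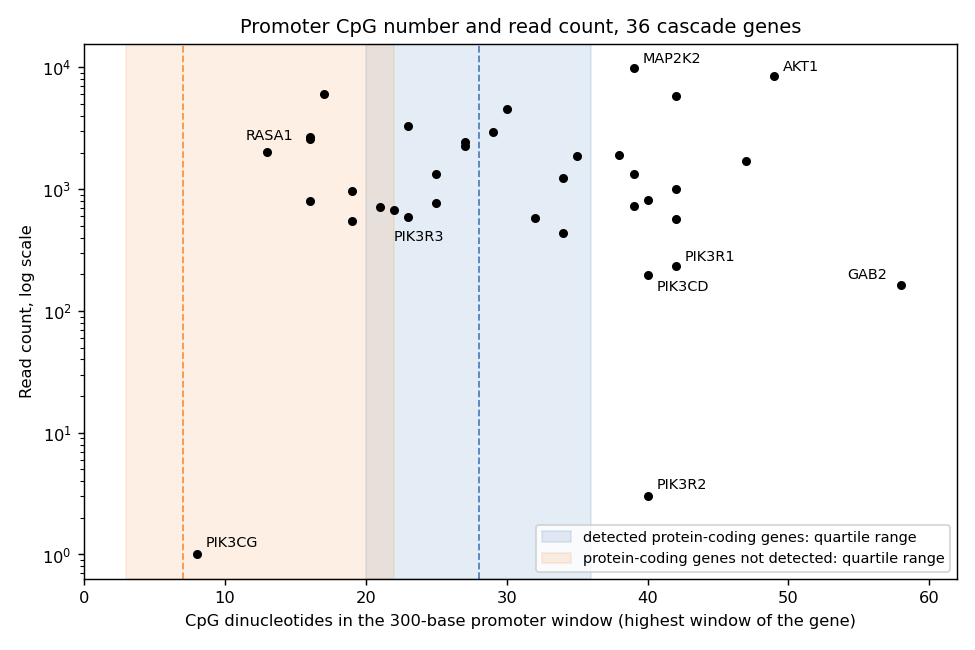
Read count on a log scale (y axis) against the number of CpG in the gene's promoter window with the most CpG (x axis) for 36 cascade genes. Shaded bands span the quartiles and dashed lines the medians for detected (28) and undetected (7) protein-coding genes. PIK3CG lies in the undetected band at 8 CpG together with 9 detected members. PIK3R2 lies at 40 CpG with 3 counts, a row value that is not a measure of its transcript.

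INPP4B, a phosphatase that removes a PI3K lipid product, had 440 counts (17.6 CPM, 16.0 to 19.3) and stood above 39.8% of detected protein-coding genes. Of its 6 annotated promoter windows the CpG number ran from 0 to 34. PDPK1, the kinase that phosphorylates AKT, had 1699 counts, or 67.9 CPM (64.7 to 71.2). AKT2 had 2271 counts, or 90.8 CPM (87.1 to 94.6), and AKT1 (ENSG00000142208.16_4) had 8437 counts, or 337 CPM (330.1 to 345). The ratio of AKT2 to AKT1 counts was 0.269 (0.257 to 0.282), and AKT1 stood above 96.9% of detected protein-coding genes.

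The TSC complex, which holds RHEB inactive, drew more reads for TSC2 than for TSC1. TSC2, the subunit with the GTPase-activating domain, had 5877 counts, or 235 CPM (229 to 241), and TSC1, which stabilises it, had 1321 counts, or 52.8 CPM (50.003 to 55.74). Their ratio was 4.45 (4.19 to 4.73). TSC2 overlaps PKD1 in RefSeq, which had 5680 counts, so part of the TSC2 value is uncertain. RHEB, the GTPase that activates mTOR, had 2418 counts, or 96.7 CPM (92.9 to 101), and its 3 pseudogene rows together had 11 counts, or 0.455% of its own.

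The kinase MTOR and its partner RPTOR had nearly the same read numbers, and RICTOR had fewer. MTOR had 2603 counts, or 104 CPM (100.1 to 108). RPTOR, which defines the complex that acts on translation, had 2659 counts, or 106 CPM (102 to 110), and RICTOR, which defines the complex that phosphorylates AKT, had 1008 counts, or 40.3 CPM (37.8 to 42.9). The ratio of RPTOR to RICTOR counts was 2.64 (2.45 to 2.84). RICTOR overlaps OSMR in RefSeq, which had 6739 counts, so the RICTOR value and this ratio are uncertain without strand.

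At the translation end, reads leaned to RPS6KB2 and to the inhibitor EIF4EBP1. RPS6KB2 had 4564 counts, or 182 CPM (177 to 188), and RPS6KB1, the better studied S6 kinase, had 716 counts, or 28.6 CPM (26.6 to 30.8), at a ratio of 6.37 (5.89 to 6.91). EIF4EBP1 binds the cap-binding protein EIF4E and is released from it when mTOR phosphorylates it. EIF4EBP1 had 3054 counts, or 122 CPM (118 to 127), and EIF4E had 544 counts, or 21.7 CPM (19.96 to 23.66). The ratio of EIF4EBP1 to EIF4E counts was 5.61 (5.12 to 6.16), and EIF4E stood above 44.9% of detected protein-coding genes. EIF4E has 5 pseudogene rows, which had 3 counts in all.

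The SRC family kinases, which act beside EGFR, were both detected. YES1 had 1345 counts, or 53.8 CPM (50.9 to 56.7), and SRC had 2170 counts, or 86.8 CPM (83.1 to 90.5), at a ratio of YES1 to SRC counts of 0.620 (0.579 to 0.664).

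Over the 18 pairs of related genes compared, the interval of the ratio held 1 for 2 pairs, NRAS to HRAS and PIK3CB to PIK3CA. In 12 pairs the first-named gene had more reads, and in 4, GAB2 to GAB1, PIK3R2 to PIK3R1, AKT2 to AKT1 and YES1 to SRC, it had fewer. Pseudogene rows named after a member took few reads: 35 rows for 11 members had 26 counts in all, and none reached 10. The share of the parent's count was highest for EIF4EP2, at 0.551% of EIF4E. How reads with several map positions were treated is not given, so low pseudogene rows cannot show whether the parents lost shared reads. Another annotated gene with at least 10 counts overlapped 10 of the 41 members in RefSeq. Beside the overlaps already named, these were SNAPC5 with 231 counts at MAP2K1, KCNMB3 with 91 at PIK3CA, SYN1 with 21 at ARAF, and EVI2B, EVI2A and AK4P1 with 74, 33 and 23 at NF1.

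**Figure D5:**
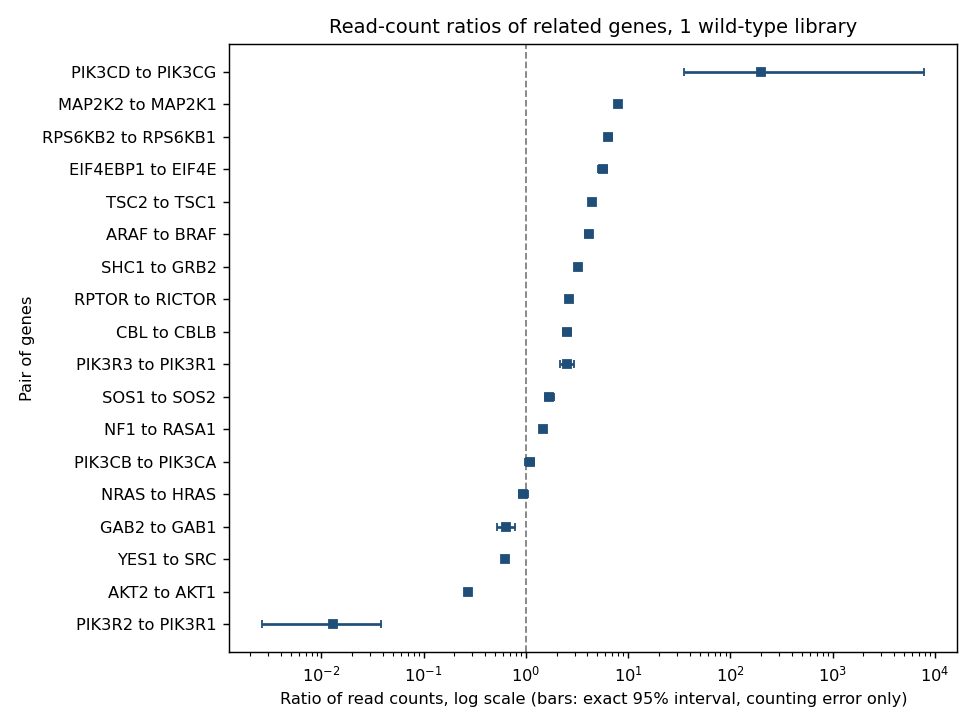
Ratio of read counts (x axis, log scale) for 18 pairs of related cascade genes (y axis), with exact 95% intervals for counting error. MAP2K2 to MAP2K1 (8.02), RPS6KB2 to RPS6KB1 (6.37) and EIF4EBP1 to EIF4E (5.61) lie well right of the dashed line at 1, AKT2 to AKT1 (0.269) lies left of it, and the pairs with 1 or 3 counts for a gene have the widest bars.

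Other genes of both arms, 116 in 9 lists, were together detected nearly as often as the members. Of the 116, 105 (90.5%) had at least 10 counts, against the background of 69.7%, and their median was 26.8 CPM with undetected genes included. The lowest shares were 57.1% for the other PI3K subunits and 70.0% for the other SRC family kinases and regulators, below or near that background. Of 21 other adaptors 19 were detected, led by GRB10 with 6708 counts, the insulin receptor substrate IRS1 with 4163 and CRKL with 2729, while SHC4 had 4 and DOK2 had 1. Of 13 other exchange factors and GTPase-activating proteins 11 were detected, with a median of 1.68 CPM, the lowest of the 9 lists. The GTPase-activating proteins RASAL2 and DAB2IP led it with 2900 and 2371 counts, RASAL3 had 1 and RASGRF2 was at 0, with an upper limit set at 3 counts, or 0.120 CPM. The 3 RASGRP exchange factors, named here after their values were seen, had 14 to 19 counts each.

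All 7 RAS-related GTPases were detected, with RALB, RALA and RRAS2 at 2235, 1463 and 1365 counts. Of 10 ERK scaffolds and modulators 9 were detected. IQGAP1, a scaffold for RAF, MEK and ERK, had 8217 counts, PEBP1, a RAF inhibitor, had 2822, LAMTOR4 had 2313 and KSR2 had 2. Of 7 other PI3K subunits 4 were detected, with PIK3C2A, PIK3C2B and PIK3R4 at 1113, 1040 and 899 counts. PIK3R5, a partner of the PIK3CG product, had 7 counts, and PIK3R6, another such partner, and PIK3C2G were at 0. The PIK3CG gene and both of its partner subunits were thus under the minimum in the same library.

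All 8 other inositol lipid and AKT phosphatases were detected, led by INPPL1, which encodes the lipid phosphatase SHIP2, with 5717 counts, followed by INPP4A with 1611 and INPP5K with 1258. INPP4A, a relative of INPP4B, thus had more reads than the 440 of INPP4B. All 18 other mTOR complex members and regulators were detected, with the mTOR inhibitor DDIT4 at 6758 counts, NPRL3 at 3308 and MAPKAP1 at 2472. All 22 other effectors were detected, led by the translation factor EIF4G1 with 25938 counts, the ribosomal protein RPS6 with 14745 and EIF4B with 12585. Of 10 other SRC family kinases and their regulators 7 were detected. CSK, the kinase that restrains SRC, had 2041 counts, PTK2B had 1485 and PTK2 had 1399, while BLK and FGR had 3 each.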

How the data were processed

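Values are the authors' deposited gene counts, whole numbers with no normalisation. The submitters' processing notes name STAR, featureCounts and build hg19 without tying tools to an assay. Not given in the sources used here are the annotation release, whether strand was used, and what became of reads with several map positions or several overlapping genes. Symbols came from a table of gene names matched on the unversioned identifier: 56373 of 60880 rows, holding 99.8% of counts, received a symbol. Gene type, overlaps and promoters came from RefSeq (GRCh38.p14), with no hg19 coordinates used. Overlaps were taken between whole gene spans and not between exons.

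Counts were divided by the library total. Levels have Garwood Poisson intervals, and shares and ratios have Clopper-Pearson ones. Ratios had been planned per kilobase. No gene length was used here, so they are ratios of read counts. The rule for the members uses no measured value, but the set, the lists and the pairs were chosen with earlier results of these data known. All members are named, and of each list the 3 genes with the highest counts and up to 3 under 10 counts. A few genes of the cascade and of the lists, some of which this rule would name, are not reported here. Promoter sequences were checked to run along the gene's strand: TATAAA occurred 385 times in plus-strand and 423 times in minus-strand windows near the usual TATA position, against 109 and 92 times in a stretch of equal length far upstream. On counts simulated as Poisson draws, the 95% intervals held the mean for 95.6% of 17925 genes and the ratio for 95.3% of 2000 pairs. The intervals assume Poisson counts, so this checks the calculation and not the spread between libraries. Scripts ran in Python 3.11.15 with SciPy 1.17.1, pandas 2.3.3 and NumPy 2.4.6, and figures were drawn with Matplotlib 3.10.9.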

Additional observations from a re-analysis of the deposited data

How the results depend on the processing

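The number of detected members was 39 at minimums of 10 counts, 50 counts and 1 CPM and after random thinning to 50% of counts, and 41 at a minimum of 1 count. Of the 116 other pathway genes 112, 93 and 98 were detected at 1 count, 50 counts and 1 CPM. Among single lists only the other exchange factors and GTPase-activating proteins moved by over 1.5 times, from 11 to 6 at 50 counts and to 7 at 1 CPM. The median of the members became 55.8 CPM without mitochondrial genes in the total and 56.8 CPM without the 10 genes with the highest counts, since a smaller total raises every CPM. After thinning, 16 of 18 ratios and all 7 PI3K shares stayed inside their intervals, while ARAF to BRAF became 4.56 and RPTOR to RICTOR 2.91. Without the PIK3R2 row, an alternative chosen after seeing the data, PIK3R3 held 71.6% and PIK3R1 28.4% of regulatory counts. That row held 3 of the 822 counts, so leaving it out could hardly move the shares. It does not show what the shares would be if PIK3R2 reads were lost in counting. The planned ratios and shares per kilobase were not run for want of lengths. No paired analysis was possible because the values come from a single library.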

Other observations

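VAV1, an exchange factor best known from blood cells, had 842 counts, or 33.7 CPM. It stood above 56.8% of detected protein-coding genes. LCP2, an adaptor that works with VAV1 in T cells, was at 0.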
